A study of Danio rerio with 4 samples.

Results

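The REV-ERB and ROR genes encode the clock's own pair of opposed nuclear receptor families, and all 9 zebrafish genes listed for them were found in the authors' deposited table of 1 heart comparison. They were taken by gene symbol, without regard to case, and make up 9 of the 14962 genes of that table. The REV-ERB family has 5 members here (nr1d1, nr1d2a, nr1d2b, nr1d4a and nr1d4b) and the ROR family 4 (roraa, rorab, rorca and rorcb). By the labels, the comparison sets adult Ekkwill zebrafish injected with alfacalcidol against adults of the same strain injected with vehicle. The table itself names no libraries. Alfacalcidol is a synthetic vitamin D analog that the liver converts to the active hormone. Injections were given once a day over 3 days, and heart RNA was taken 24 hours after the last of them, per the labels. The labels give no dose, no sex, no number of fish behind a library and no hour of collection. In addition to the table there are raw counts of 4 libraries labelled as heart, 2 per treatment. These are described apart, because their RNA did not match the heart levels of the table.

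REV-ERB proteins are repressors and ROR proteins are activators that bind the same DNA response element, so the level of a shared target depends on the balance between them. In mammals their best known shared targets are the genes of the clock activators BMAL1, CLOCK and NPAS2 and the repressor gene NFIL3. REV-ERB genes are in turn switched on by CLOCK and BMAL, which closes a second loop beside the PER and CRY loop. Haem is the natural ligand of REV-ERB proteins, which silence genes by recruiting the NCOR corepressor and the deacetylase HDAC3, whereas sterols bind ROR proteins. Teleost fish kept duplicate copies of most of these genes and have the nr1d4 pair besides.

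The families moved in opposite directions. Every REV-ERB gene was lower and every ROR gene was higher in the authors' deposited table, where positive values are read as higher with alfacalcidol. Of the 9, 5 were lower and 4 higher at an adjusted p under 0.05 (edgeR of the submitters' processing notes, adjusted by Benjamini-Hochberg over the whole table). The share of all genes in the authors' deposited table that passed was 20.1%, with 9.22% lower and 10.9% higher. The median log2 fold change was -1.37 for the REV-ERB genes and 1.04 for the ROR genes in the authors' deposited table, beside 0.01 for all its genes. The table names neither its libraries nor its numerator, so the comparison is taken from the labels. The reading rests on the positive value of cyp24a1 in the authors' deposited table (1.53, adjusted p 8.19e-05), at a mean of only 3.69 CPM. The enzyme of cyp24a1 breaks down active vitamin D, and the vitamin D receptor switches on transcription of the gene. If that reading is wrong, every direction taken from the table turns round, while the opposition of the families stays. The table holds no values per library, so neither its spread nor the effect of leaving out a library can be given. In whole hearts, fewer cells of a type and less RNA per cell cannot be told apart.

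**Figure D1:**
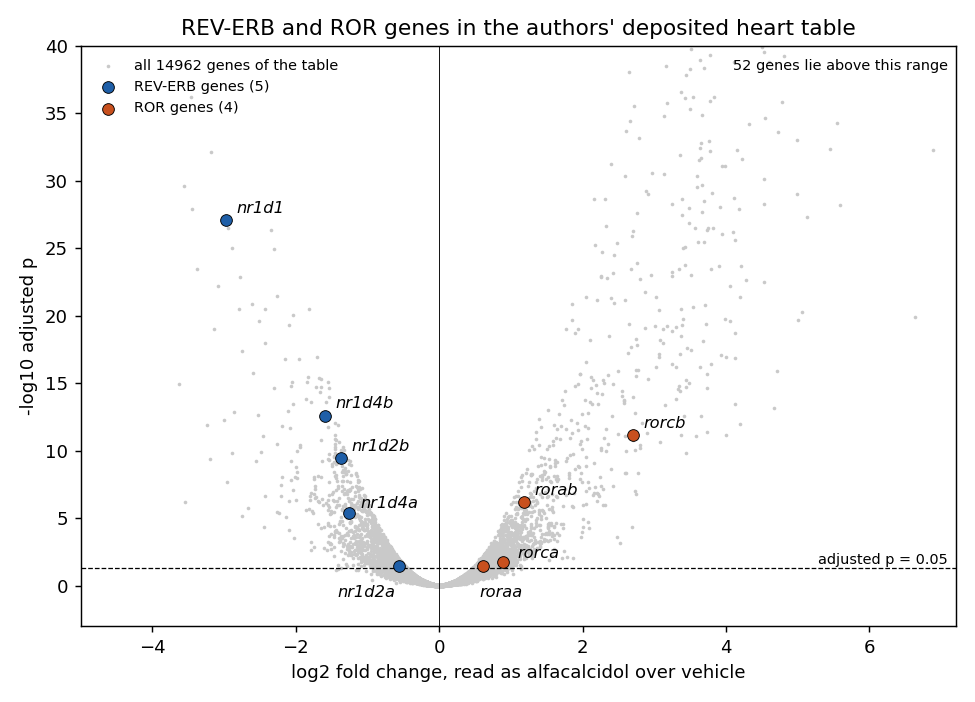
Log2 fold change (horizontal) against -log10 adjusted p (vertical) for each gene of the authors' deposited table, with the 5 REV-ERB genes in blue, the 4 ROR genes in orange and 52 genes above the plotted range. The REV-ERB genes lie on the left, from -2.97 to -0.56, and the ROR genes on the right, from 0.61 to 2.70, all above the dashed line at an adjusted p of 0.05.

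Among the repressors, nr1d1 had the largest change. It encodes REV-ERB alpha, whose transcript has one of the strongest daily rhythms known in vertebrates. Nr1d1 (ENSDARG00000033160, chromosome 3, 23358104 to 23365675, GRCz10) was 7.86-fold lower in the authors' deposited table, a log2 fold change of -2.97, at an adjusted p of 7.57e-28. Its mean level over both conditions was 131.6 CPM (reads scaled to a common library total) in the authors' deposited table. It ranked 14 of 14962 from the bottom by fold change in the authors' deposited table.

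The nr1d2 pair encodes REV-ERB beta, which overlaps with REV-ERB alpha in function in mice. Its copies differed in size of change. Nr1d2b (ENSDARG00000009594, chromosome 19, 17941698 to 17948550) had a log2 value of -1.37 in the authors' deposited table, at an adjusted p of 3.42e-10 and a mean of 75.5 CPM. Nr1d2a (ENSDARG00000003820, chromosome 16, 49879775 to 49907024), at a mean of 261.0 CPM, had only -0.56 in the authors' deposited table (adjusted p 0.0339). Nr1d2a therefore sat close to the threshold, the weakest of the family by p. The gap between the copies was -0.81 on the log2 scale and was not tested, since the table allows no test between genes.

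The nr1d4 genes, further REV-ERB copies of fish, changed by more similar amounts. For nr1d4b (ENSDARG00000059370, chromosome 11, 1948136 to 1970845) the authors' deposited table gives a log2 fold change of -1.60, 3.02-fold lower, with an adjusted p of 2.51e-13 and a mean level of 33.0 CPM. For nr1d4a (ENSDARG00000031161, chromosome 23, 35696956 to 35722718) the authors' deposited table gives -1.25 (adjusted p 4.10e-06) at 6.06 CPM.

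On the activator side, rorcb had the largest change. Rorcb (ENSDARG00000017780, chromosome 2, 49683670 to 49720221) was 6.51-fold higher in the authors' deposited table (log2 fold change 2.70, adjusted p 7.27e-12), at a mean level of 12.1 CPM. It ranked 220 of 14962 from the top by fold change. Its duplicate rorca (ENSDARG00000057231, chromosome 8, 18854691 to 18869010) was at 0.90 in the authors' deposited table (adjusted p 0.0173) at 7.88 CPM. The gap between these copies, 1.81 on the log2 scale, was the widest of the 4 duplicate pairs in the authors' deposited table and was likewise not tested.

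RORA proteins drive Bmal1 in mice and are needed for the development of the cerebellum there. Rorab (ENSDARG00000001910, chromosome 7, 29267478 to 29354359) was 2.26-fold higher in the authors' deposited table (log2 fold change 1.18, adjusted p 6.03e-07), at a mean level of 10.8 CPM. Roraa (ENSDARG00000031768, chromosome 25, 33364220 to 33484290) was at 0.61 in the authors' deposited table (adjusted p 0.0342) at 7.57 CPM. Roraa was thus the smallest change of the ROR family and, with nr1d2a, the nearest to the threshold. The remaining ROR gene of zebrafish, rorb, had no match by symbol there. No source used here tells how reads shared between duplicate copies were counted, so the split between copies of a pair is uncertain.

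The genes lie on 9 different chromosomes, and no other gene listed in the table overlaps one of them. REV-ERB genes span 6853 to 27250 bases and ROR genes 14320 to 120071 bases in the coordinates of the authors' deposited table. The nearest listed gene on each side was examined for each member, 18 neighbours in all. The authors' deposited table called 3 of the 18 neighbours (16.67%), where it called 20.1% of all genes. Of these 3, 2 moved with their member and 1 against it. Beside nr1d4a, rarga, a retinoic acid receptor gene that starts 25678 bases away, was lower at -0.63 in the authors' deposited table (adjusted p 0.0157). Beside roraa, ice2, which encodes a subunit of the little elongation complex, was higher at 0.56 in the authors' deposited table (adjusted p 0.0453). The third neighbour went against its member. BX682558.1, an unnamed gene that lies 2213 bases beyond nr1d1, was higher at 3.24 in the authors' deposited table (adjusted p 1.29e-19), at a mean of only 1.91 CPM. The strand of neither gene is given in the table. Thrb, the thyroid hormone receptor gene 107555 bases beyond nr1d2b, had a value of -0.39 in the authors' deposited table and did not pass (adjusted p 0.162). The other 14 neighbours, none of which passed, ran from -0.46 for sema6bb to 0.56 for si:dkey-225f5.5 in the authors' deposited table. They were si:dkey-225f5.5 beside nr1d1, ube2e2 and etfb beside nr1d2a, rpl15 beside nr1d2b, gdap1l1 beside nr1d4a, and rbms2a and hnrnpa1a beside nr1d4b. Beside the ROR genes they were lactb (roraa), gtf2a2 and vps13c (rorab), sh3gl1b and sema6bb (rorca), and abhd17aa and cactin (rorcb).

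Genes for the mammalian targets BMAL1, CLOCK and NPAS2 named above were listed together with arntl2, the BMAL2 gene, which was not named as a target. The genes of this list were mostly higher. The NFIL3 genes, described below, were split. The authors' deposited table had 4 of 6 matched CLOCK, NPAS2 and BMAL genes higher and 0 lower, and the median of the list was 0.81. Clocka was at 1.44, arntl2 at 1.07, arntl1a at 0.83 and arntl1b at 0.80 as log2 values of the authors' deposited table (adjusted p values of 6.06e-09, 8.89e-05, 0.00225 and 0.00110). The arntl genes encode the BMAL proteins. The exceptions were clockb at 0.54 (adjusted p 0.0637) and npas2 at -0.22 (adjusted p 0.622) in the authors' deposited table.

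The NFIL3 and PAR bZIP factors, which compete for one DNA element as repressors and activators, split. The authors' deposited table had 2 of 9 higher and 6 lower, and their median was -1.65. Both higher genes were NFIL3 genes: the authors' deposited table gives nfil3-5 at 2.42 and nfil3 at 1.41 on the log2 scale (adjusted p values of 3.86e-08 and 1.71e-07). The NFIL3 copy nfil3-6 was instead lower at -3.13 (adjusted p 9.02e-20), and nfil3-2 was at 1.15 with an adjusted p of 0.0571, in the authors' deposited table. All 5 matched PAR bZIP activator genes were lower, among them dbpb at -2.43, tefb at -2.11 and tefa at -1.65 (the authors' deposited table gives adjusted p values of 2.99e-21, 1.05e-13 and 1.69e-11).

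Most of the genes matched for PER, CRY and direct antagonists of CLOCK and BMAL were lower, and none was called higher. The authors' deposited table had 7 of 12 matched PER and CRY genes lower and 0 higher, and their median was -1.16. Per1b was at -3.56, per1a at -3.24, cry2 at -2.94 and cry1aa at -1.10 in the authors' deposited table (adjusted p values of 2.43e-30, 1.28e-12, 2.95e-27 and 6.70e-08). The 7 lower genes include cry-dash at -1.22 (adjusted p 9.53e-05 in the authors' deposited table). Without a call were cry1ab at -0.04, cry1ba at 0.12, cry1bb at -0.21, cry4 at 0.10 and cry5 at -0.80 in the authors' deposited table. All 6 matched genes for direct CLOCK and BMAL antagonists of the CIART, CIPC and BHLHE40 families were lower, and their median in the authors' deposited table was -2.06. Bhlhe40 was at -3.46, cipca at -3.08, ciarta at -2.75 and ciartb at -1.38 there (adjusted p values of 6.04e-37, 5.76e-23, 4.02e-18 and 1.50e-05 in the authors' deposited table). Over these 4 clock lists 19 of 33 matched genes were lower, 6 higher and 8 not called in the authors' deposited table. Of all its genes 9.22% were lower and 10.9% higher. The hour at which the hearts were collected is not in the labels, and its part in these values was not tested.

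**Figure D2:**
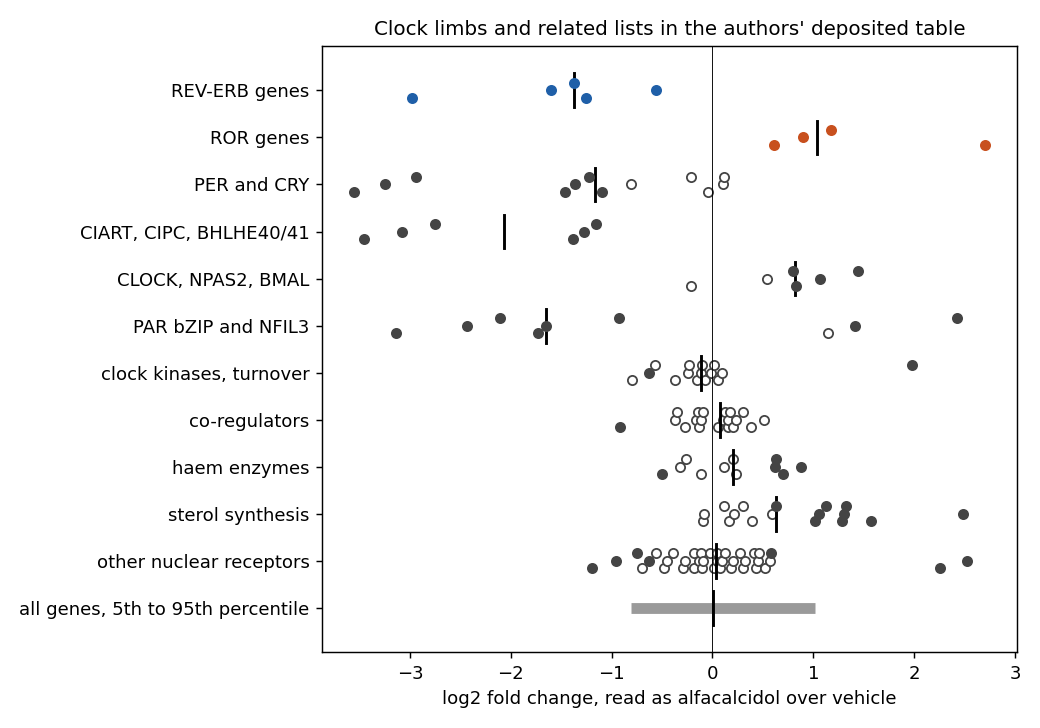
Log2 fold change in the authors' deposited table of each matched gene of a list, 1 row per list, with filled points for genes at an adjusted p under 0.05, open points for the others, a black tick at the list median and a grey bar from the 5th to the 95th percentile of all genes (-0.81 to 1.01). The REV-ERB median falls on the side of the medians for PER and CRY and for the direct antagonists. The ROR median falls on the side of the median for the CLOCK, NPAS2 and BMAL genes.

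For each member, the gene of 5 clock lists (48 matched genes) with the nearest log2 fold change was looked up. This likeness rests on 1 contrast only. With 48 genes to choose from, a near value can be found for most members, so a small gap alone shows no link. The nearest gene to nr1d1 was cry2, with log2 values 0.03 apart in the authors' deposited table. Nr1d2b lay nearest to ciartb, nr1d4a to bhlhe41 (-1.27, adjusted p 0.00120) and nr1d4b to tefa, each within 0.06 in the authors' deposited table. Rorca lay nearest to arntl1a (0.07 apart), roraa to clockb (0.07), rorab to nfil3-2 (0.03) and rorcb to nfil3-5 (0.28) in the authors' deposited table. Nr1d2a lay nearest to the deubiquitinase gene usp2a, at -0.57 in the authors' deposited table (adjusted p 0.0568).

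Genes for proteins that modify or partner the clock proteins were looked up next. The authors' deposited table had 1 of 15 matched genes for kinases, ubiquitin ligases and deubiquitinases of clock proteins higher and 1 lower (13.3% called, where 20.1% of all its genes were), and their median was -0.11. These were fbxl3l, an F-box gene, at 1.98 (adjusted p 4.73e-09), and csnk1e, encoding casein kinase 1 epsilon, at -0.63 (adjusted p 0.0180), in the authors' deposited table. Fbxw7 and huwe1, whose mammalian products mark REV-ERB alpha for degradation, were at -0.24 and 0.09 in the authors' deposited table (adjusted p values of 0.457 and 0.793). The authors' deposited table had 0 of 20 co-regulator genes higher and 1 lower (5% called, against the same 20.1%), and their median was 0.08. Of the partners of REV-ERB repression, ncor1 at 0.16 and hdac3 at 0.23 did not pass in the authors' deposited table (adjusted p values of 0.609 and 0.444). The lower gene was ppargc1a, encoding PGC-1 alpha, a coactivator of ROR proteins, at -0.91 in the authors' deposited table (adjusted p 2.19e-05).

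Both ligand routes held called genes. The authors' deposited table had 4 of 11 matched genes of the haem list higher and 1 lower, and their median was 0.20. It called 45.5% of that list, where it called 20.1% of all genes. Ppox was at 0.88, hmbsb at 0.70, hmbsa at 0.63 and cpox at 0.62, all enzymes between the first and last step of haem synthesis (adjusted p values of 0.000611, 0.0193, 0.0119 and 0.0141 in the authors' deposited table). The rate-limiting enzyme gene of most tissues, alas1, was at 0.11 in the authors' deposited table and did not pass (adjusted p 0.804). The lower one was the erythrocyte form alas2 at -0.50 (adjusted p 0.0385 in the authors' deposited table), which also stands in the erythrocyte marker list. The authors' deposited table had 9 of 17 matched sterol synthesis genes higher and 0 lower, and their median was 0.63. It called 52.9% of that list, against the same 20.1%. Lss, which closes the sterol ring, was at 2.49, pmvk at 1.57, ebp at 1.33 and mvk at 1.28 in the authors' deposited table (adjusted p values of 6.13e-12, 2.46e-06, 4.98e-05 and 5.57e-05). These genes were weakly expressed, from 2.18 CPM for mvk to 2.37 CPM for lss in the authors' deposited table, so their sizes of change are uncertain.

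Other nuclear receptor genes were called about as often as genes in general. The authors' deposited table had 3 of 38 matched genes higher and 4 lower (18.4% called, where 20.1% of all its genes were), and their median was 0.03. The immediate early receptors nr4a1 and nr4a2b were at 2.26 and 2.52 in the authors' deposited table (adjusted p values of 1.14e-23 and 0.000698), and nr4a2b was at only 3.04 CPM. The third gene of that family listed there, nr4a3, was at 0.10 in the authors' deposited table and did not pass (adjusted p 0.944). The lipid-sensing receptors pparg and pparaa were at -1.19 and -0.96 in the authors' deposited table (adjusted p values of 0.00271 and 0.00114). Both were weakly expressed there, at means of 1.53 and 3.64 CPM, so their sizes of change are uncertain. The other PPAR genes, pparab at -0.09, pparda at 0.02 and ppardb at -0.13, did not pass in the authors' deposited table. The vitamin D receptor gene vdrb was at -0.48 in the authors' deposited table and did not pass (adjusted p 0.347). No difference between this list and the REV-ERB and ROR genes was tested.

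Markers of cell types were read from the same table. The authors' deposited table had 20 of 51 matched markers, from 12 lists, lower and 0 higher. Of all its genes 9.22% were lower and 10.9% higher. All 6 genes listed as neutrophil markers were lower, and their median in the authors' deposited table was -2.03. They were mpx, lyz, npsn, mmp9, mmp13a and cpa5, and how specific each is to neutrophils was not tested. These 6 genes were weakly expressed, from 1.43 to 4.27 CPM in the authors' deposited table, so their sizes of change are uncertain. Lower in the authors' deposited table were also 4 of 8 endothelial, 3 of 6 macrophage, 2 of 8 cardiomyocyte, 2 of 7 skeletal muscle, 1 of 4 erythrocyte, 1 of 7 epicardial and 1 of 2 liver markers. The 2 skeletal muscle markers were acta1b at -0.81 and ckma at -0.83, with means of 1410 and 1492 CPM in the authors' deposited table. The other 5 matched skeletal muscle markers did not pass and were weakly expressed there, from 1.15 to 8.75 CPM. None passed among the cartilage, eye and brain lists, with 1 gene matched in each in the authors' deposited table. For lymphocytes, 0 of 7 markers had a match in the authors' deposited table. The REV-ERB genes were lower beside these markers and the ROR genes were not, and the part of the cell make-up in either result was not tested.

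The 4 count libraries held 31427486 to 39572163 counts each. Their RNA did not look like the heart of the table. The 8 cardiomyocyte markers summed to 212.0 and 251.6 CPM in the libraries labelled alfacalcidol and to 208.0 and 238.6 CPM in those labelled vehicle, against 87310 CPM in the authors' deposited table. Skeletal muscle markers summed to between 32400 and 37810 CPM in these libraries, against 2921 CPM in the authors' deposited table. Of those 2921 CPM, acta1b held 1410 and ckma 1492, and the other matched markers of that list were weakly expressed. Cartilage, eye and brain genes were plain as well, with col9a1b at 550.7 to 591.9, gnat2 at 304.1 to 467.8 and elavl3 at 330.8 to 374.1 CPM. Lymphocyte markers were near 0 (7 matched by name, at most 3.37 CPM). The libraries are therefore called by their labels. Alfacalcidol replicate 1 and vehicle replicate 2 were the closest pair of libraries (mean chi-square per gene of 2.21, against 7.11 to 22.2 for the other pairs), although their labels differ. The next closest pair, vehicle replicate 1 and alfacalcidol replicate 2 at 7.11, also crossed the labels. Pairs that shared a label stood at 18.1 for vehicle and 20.9 for alfacalcidol. Nothing in the labels says that replicates came from separate animals or pools, so p-values from the counts measure only the spread between these libraries.

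All 9 genes had reads in every count library and passed the filter on low counts. No member was called between the labels. The quasi-likelihood test of edgeR with Benjamini-Hochberg adjustment called 0 of the 9 and 0% of 22428 genes, and DESeq2 also called 0. At an unadjusted p under 0.05 edgeR gave 0 of the 9 genes and 0.571% of all genes, 128 in number. Such numbers are not given for fits with a library left out, because a label then holds a single library. Log2 fold changes of alfacalcidol over vehicle ran from -0.16 to 0.03 for the 9 genes, with a median of -0.02, beside 0.00 for all genes. Because the libraries resemble each other across the labels, the error of this fit holds that likeness too, and the absence of calls does not show that no gene differs.

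Nr1d1 had 55.3 and 38.9 CPM in the libraries labelled alfacalcidol (replicates 1 and 2), against 46.7 and 57.4 CPM in those labelled vehicle. The groups overlapped, and the lowest and the next to lowest library carried different labels. Its log2 fold change was -0.15 ± 0.18 (SE, n = 2 per label), with a 95% interval from -0.57 to 0.28 and an edgeR adjusted p of 1. Without alfacalcidol replicate 1 the log2 fold change was -0.43, and without alfacalcidol replicate 2 it was 0.091, with the sign reversed. The interval from all 4 libraries does not reach the -2.97 of the authors' deposited table.

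The nr1d2 pair gave like values in all libraries. Nr1d2b had 218.2 and 206.3 CPM in the libraries labelled alfacalcidol, against 214.4 and 217.6 CPM in those labelled vehicle, which overlapped (log2 fold change -0.03, interval -0.20 to 0.15). Nr1d2a had 143.3 and 146.1 CPM under the alfacalcidol label, against 152.6 and 152.3 CPM under vehicle. It was the 1 gene of the 9 whose labels did not overlap, while 21.1% of all genes tested showed such a separation. Its log2 fold change was -0.08 ± 0.07 (SE), with an interval from -0.25 to 0.09.

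The nr1d4 genes had from 234 to 672 reads in a library. Nr1d4a had 10.3 and 6.82 CPM under the alfacalcidol label, against 7.45 and 9.58 CPM under vehicle, with the high and low library of each label side by side (log2 fold change 0.00, interval -0.54 to 0.53). Nr1d4b had 14.6 and 17.0 CPM under alfacalcidol, against 18.8 and 16.5 CPM under vehicle. Its groups overlapped narrowly (log2 fold change -0.16, interval -0.44 to 0.12).

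No ROR gene separated the labels. Rorcb had 47.9 and 54.0 CPM in the libraries labelled alfacalcidol, against 52.9 and 50.2 CPM in those labelled vehicle, with overlap (log2 fold change -0.02, interval -0.23 to 0.20). Rorca had 29.7 and 34.9 CPM under alfacalcidol, against 35.2 and 29.3 CPM under vehicle (log2 fold change 0.00, interval -0.29 to 0.30). In rorca 1 library of each label was high and 1 low, so the labels covered the same range. Rorab had 116.6 and 115.2 CPM under alfacalcidol, against 117.0 and 111.7 CPM under vehicle (interval -0.16 to 0.20). Roraa had 104.6 and 116.3 CPM under alfacalcidol, against 111.3 and 105.6 CPM under vehicle (interval -0.17 to 0.23). Both RORA genes overlapped between the labels.

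**Figure D3:**
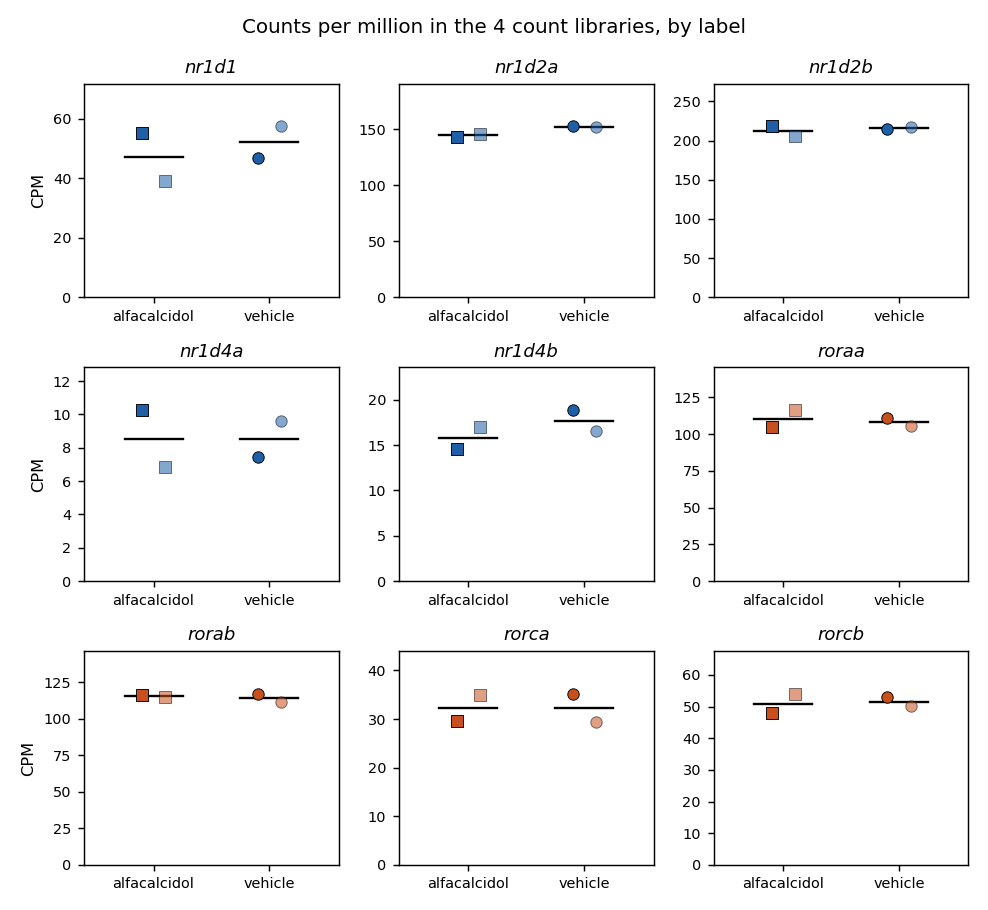
CPM of each of the 9 genes (vertical, from 0) in the libraries labelled alfacalcidol (squares, left) and vehicle (circles, right), with replicate 1 left of and darker than replicate 2, and a line at the mean of 2 libraries. The labels overlap in 8 of the 9 genes. The exception is nr1d2a, with 143.3 and 146.1 CPM against 152.6 and 152.3 CPM.

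Set side by side, the sources gave different values for the same genes. Because the RNA of the count libraries did not look like the heart of the table, the sources may not measure the same comparison. For each of the 9 genes the 95% interval from the count libraries leaves out the value of the authors' deposited table. That interval holds no error of the deposited value. The nearest were nr1d2a, with a lower bound of -0.25 in the count libraries against -0.56 in the authors' deposited table, and roraa, with an upper bound of 0.23 against 0.61 in the authors' deposited table. Across the 5 clock lists the 48 matched genes ran from -0.12 to 0.12 in the count libraries, and 0 had an unadjusted p under 0.05 by edgeR. Cyp24a1, the gene from which the direction of the table was read, had 6.77 and 3.08 CPM in the libraries labelled alfacalcidol, against 3.50 and 9.69 CPM in those labelled vehicle. These overlapped, and its log2 fold change was -0.43 ± 0.52 (SE), at an edgeR adjusted p of 1, so no rise of it under the alfacalcidol label was detected in the count libraries. Per1b, at -3.56 in the authors' deposited table, had 205.4 and 206.3 CPM in the libraries labelled alfacalcidol, against 214.4 and 200.2 CPM in those labelled vehicle.

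**Figure D4:**
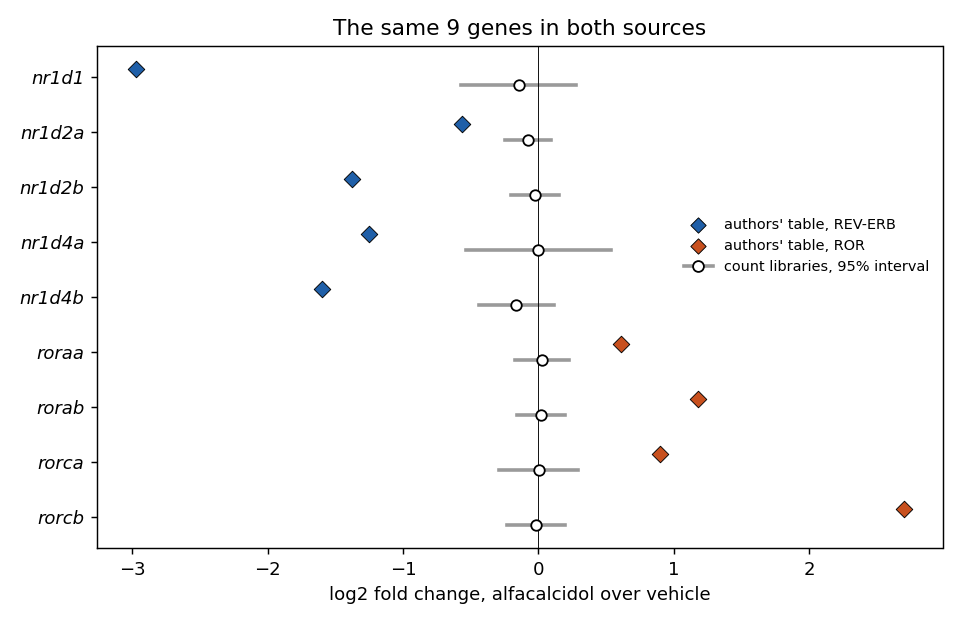
Log2 fold change of alfacalcidol over vehicle (horizontal) for each gene, with coloured diamonds for the authors' deposited table and open circles with 95% intervals for the 4 count libraries. The circles lie between -0.16 and 0.03, whereas the diamonds reach -2.97 for nr1d1 and 2.70 for rorcb.

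Levels differed by family between the sources, but a higher level in the count libraries was not particular to the ROR genes. Apart from the haem list, every list that was not a marker list also summed higher there. The other nuclear receptors summed to between 1308 and 1370 CPM, against 789.4 CPM in the authors' deposited table. The haem list summed to between 209.8 and 220.0 CPM, against 662.8 CPM in the authors' deposited table. The 4 ROR genes together had 298.8 and 320.3 CPM in the libraries labelled alfacalcidol and 316.3 and 296.8 CPM in those labelled vehicle, against 38.4 CPM in the authors' deposited table. Each ROR gene was higher in the count libraries than in the authors' deposited table, by 14.5-fold for roraa, 10.6-fold for rorab, 4.22-fold for rorcb and 4.10-fold for rorca. The 5 REV-ERB genes together had 441.7 and 415.1 CPM in the libraries labelled alfacalcidol and 439.9 and 453.3 CPM in those labelled vehicle, against 507.1 CPM in the authors' deposited table. Within that family the copies went both ways. Nr1d2b was 2.84 and nr1d4a 1.41 times as high in the count libraries as in the authors' deposited table. In contrast nr1d1 stood at 0.377, nr1d4b at 0.507 and nr1d2a at 0.569 times its level in the authors' deposited table. These ratios compare a gene with itself. No order of levels between genes is given, because CPM does not correct for transcript length and no transcript lengths were used. The sources were normalized apart, and no test was made between them.

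**Figure D5:**
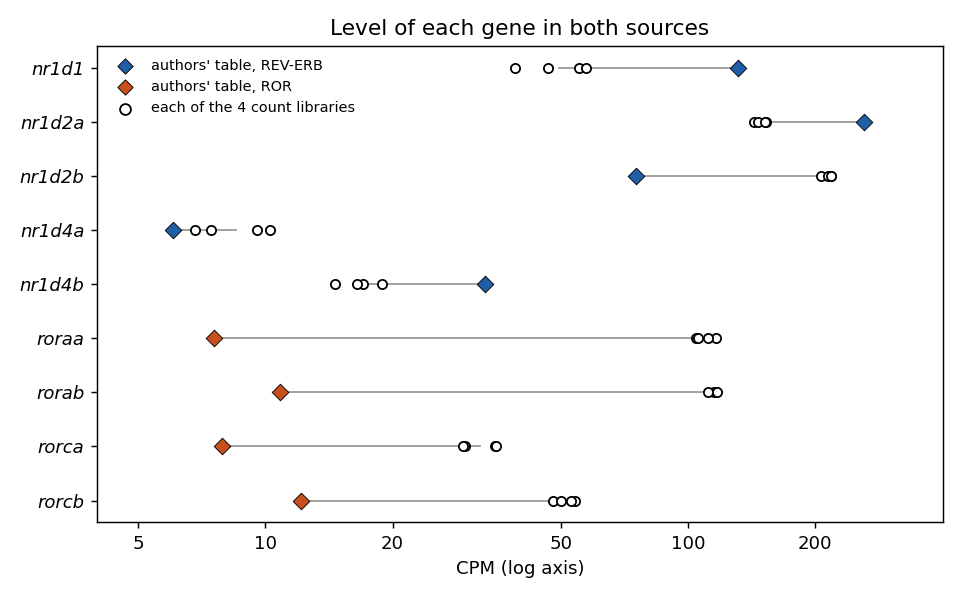
Level of each gene in CPM (horizontal, log axis), with coloured diamonds for the authors' deposited table and open circles for each of the 4 count libraries. All 4 ROR diamonds lie left of their circles, by up to 14.5-fold for roraa, whereas nr1d1, nr1d2a and nr1d4b lie to the right of theirs.

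The ROR gene missing from the table, rorb, was matched by name in the count libraries. It had 20.7 and 23.1 CPM in the libraries labelled alfacalcidol, against 26.3 and 20.5 CPM in those labelled vehicle, and the labels overlapped. In mammals RORB is found mainly in the retina, the pineal gland and the brain.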

How the data were processed

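Each of the 4 deposited files holds raw counts for 31462 Ensembl genes. The submitters' processing notes name CASAVA, TopHat2, featureCounts and edgeR and the GRCz10 build. For versions, strand setting and shared reads nothing is given in the sources used here. The authors' deposited table gives edgeR log2 fold changes and mean log2 CPM for 14962 genes, per the submitters' processing notes. Its deposited p-values are unadjusted and adjusted, and the second column equals the Benjamini-Hochberg adjustment of the first when recomputed. Levels in CPM are 2 to the power of the deposited log2 CPM. The lowest deposited log2 CPM is -0.63, and no source used here names the filter. Names and coordinates are those of the table; genes outside it were named from a table of gene names. The table holds 109 symbols with several gene IDs, which were not used.

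The fit of the counts used R 4.3.3 and edgeR 4.0.16 with group as the only term, the filterByExpr filter, TMM scaling and a two-sided quasi-likelihood F-test, leaving 22428 genes, with a biological coefficient of variation of 10.9%. The test was run first on simulated data, in which the libraries were drawn independently of each other. That simulation did not hold the likeness across labels seen in the count libraries, so it cannot show how the test behaves with it. CPM per library are counts over the library total. Intervals come from the quasi-likelihood standard error. Alternatives for the counts were DESeq2 1.42.0, the replicate number as a block, and RLE and upper-quartile scaling. A minimum of 1 CPM in 2 libraries, no filter, a threshold of 0.1 and each library left out were tried on them too. For the authors' deposited table the alternatives were thresholds of 0.1 and 0.01 and a 2-fold minimum.

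The members and lists were chosen with earlier results of these data known. Named were every member, the called genes of each list with the lowest p, up to 4 (marker lists aside, every list had a call), the nearest listed gene on each side of a member and the clock gene nearest in fold change. Other list genes (clockb, npas2, nfil3, nfil3-5, nfil3-2, cry1ba, cry1bb, fbxw7, huwe1, ncor1, hdac3, alas1, alas2, nr4a3, pparab, pparda, ppardb and vdrb), the markers col9a1b, gnat2 and elavl3, and rorb were named after their values were seen. Cry1ab, cry4, cry5, cry-dash, the markers acta1b and ckma and the genes of the neutrophil list were also named after their values were seen. Of the co-regulator list, 1 gene that is counted is not reported by name here.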

Additional observations from a re-analysis of the deposited data

How the results depend on the processing

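In the authors' deposited table an adjusted p of 0.1 kept all 9 genes among 3795 called, and 0.01 left 6 among 2057. A 2-fold minimum left 1262 called genes, and 6 of the 9. The genes lost in both were nr1d2a (-0.56), roraa (0.61) and rorca (0.90). In the count libraries no alternative called any of the 9 genes. Neither did any planned one call a gene at all: 0 by edgeR under each scaling, filter, threshold and left-out library, and 0 by DESeq2, with 20 genes at an unadjusted p under 0.05 by DESeq2 and 128 by edgeR. With the replicate number as a block edgeR called 0 genes, 39 at an unadjusted p under 0.05. Deviations of same-numbered libraries correlated at -0.471 over 22428 genes, and those of crossed numbers at 0.471. With 2 libraries per label these values must mirror each other, so together they hold only 1 value. The negative sign for same-numbered libraries is the opposite of what pairing by number would give. The labels name no pairing. A block on the crossed pairing, added after seeing the data, called 7 genes and 0 of the 9 by edgeR. It gave 788 of 22428 genes at an unadjusted p under 0.05. Nr1d1 was among them, with a log2 fold change of only -0.15. This block was taken from the likeness seen in these same libraries, so no conclusion is drawn from its p-values.

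Of 99 fold changes of the 9 genes under alternatives, 12 changed sign, all with a library left out. The 99 include the values under the 0.1 threshold, which repeat the main fit and could not change sign. Leaving out each library gave log2 fold changes from -0.43 to 0.091 for nr1d1, -0.086 to -0.066 for nr1d2a, -0.071 to 0.019 for nr1d2b, -0.33 to 0.27 for nr1d4a, -0.27 to -0.061 for nr1d4b, -0.048 to 0.097 for roraa, -0.011 to 0.051 for rorab, -0.12 to 0.14 for rorca and -0.10 to 0.061 for rorcb. With 1 library in an arm, that library is assumed to vary like the others. No left-out library could be tried on the table.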
